A study of Mus with 8 samples.

Results

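The genes described here build and drive the mitotic spindle and the chromosomes it pulls apart: the spindle checkpoint, the kinetochore, the mitotic kinesins, condensin with DNA topoisomerase II, the chromosomal passenger complex and a few spindle and separation factors. They were chosen by name, as 40 gene symbols of known mitotic role, with earlier results of these data known. All 40 had a row among the 23185 rows of the table that carried 1 gene symbol. Expression arrays were run on liver RNA of mice collected 48 h after partial hepatectomy, the surgical removal of some liver lobes, after which the tissue left behind regrows. The groups were LKB1 KO (4 arrays) and Ctrl (4 arrays), so all livers, Ctrl included, were regenerating and no liver without hepatectomy was part of the comparison. LKB1 is the protein kinase encoded by Stk11. The strain, sex and age of the animals, the deleted allele, any Cre driver and the cells in which it acts are not stated in the labels, nor whether each array holds 1 animal.

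In dividing cells the kinetochore is built on centromeric chromatin and holds the ends of spindle microtubules, while condensin compacts the chromosomes and kinesins position them. The spindle checkpoint keeps the anaphase-promoting complex inactive until every kinetochore is attached, and separase then cuts the cohesin that holds sister chromatids. Transcripts of most of these genes accumulate in late S phase, G2 and mitosis, so in a tissue their level reads out, among other things, how many cells are in those phases. Liver cells rarely divide in the resting adult animal and re-enter the cell cycle in large numbers after partial hepatectomy. In whole-tissue RNA, more cells of a type or phase and more RNA per cell cannot be told apart.

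Stk11 was lower in every LKB1 KO array, at 3.98, 3.97, 4.84 and 4.22 log2 units in LKB1 KO 1 to 4, against 6.69, 6.68, 6.46 and 6.76 in Ctrl 1 to 4, so the arrays bore out their labels. Array medians over named genes lay between 3.75 and 3.96 log2 units. LKB1 KO 2 had the highest median and the narrowest spread over genes (SD 1.92), and its mean correlation with the other LKB1 KO arrays was 0.974. The liver label was borne out by the hepatocyte markers, of which 0 of 6 measured lay below a background gauge of 3.73 log2 units in all arrays and 0 passed the test. That gauge is the 95th percentile of the mean levels of 1354 olfactory and vomeronasal receptor genes, which liver is not known to use.

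Nearly all of the mitotic genes had a higher mean in LKB1 KO livers, by about 2-fold in the middle of the list, but a single gene, Mad2l1, passed the test over all genes. The mean of LKB1 KO exceeded that of Ctrl in 39 of the 40 genes and was lower in 1, Pttg1. Over all named genes 52.9% had a higher mean in LKB1 KO. The median difference of the members was 0.99 log2 units (1.99-fold), against 0.02 over all named genes, and single members ran from -0.01 for Pttg1 to 1.60 for Hmmr. With limma and Benjamini-Hochberg adjustment over 23185 genes, 1 member rose and 0 fell at an adjusted p under 0.05, where 0.487% of all named genes rose and 1.49% fell (1.98% in either direction). At an adjusted p under 0.1, 9 members were higher, against 1.11% of all named genes. At an unadjusted p under 0.05, 31 members were higher, against 5.8% of all named genes. The members shift together from array to array, so these 31 are not 31 separate observations. In all, 19 members differed by at least 2-fold, against 0.794% of all named genes.

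**Figure D1:**
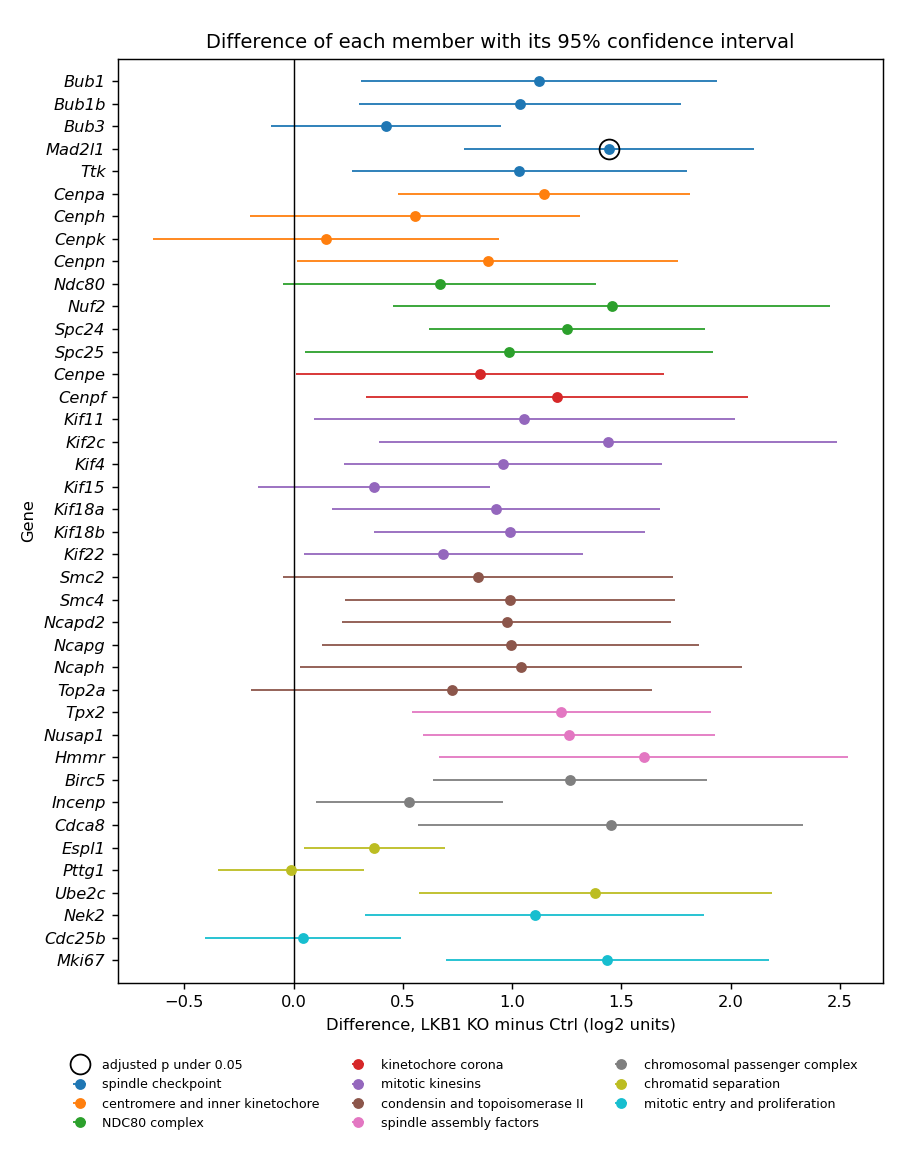
Difference in log2 units, LKB1 KO minus Ctrl, of each of the 40 members (points) with its 95% confidence interval from limma (lines), coloured by role; the open ring marks an adjusted p under 0.05. All but Pttg1 lie to the right of 0, from 0.04 for Cdc25b to 1.60 for Hmmr, the intervals are wide, and only Mad2l1 carries a ring.

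The spindle checkpoint held the gene that passed. Mad2l1 (Entrez Gene 56150), which encodes the checkpoint protein that binds and blocks the APC/C activator Cdc20, stood at 8.21, 8.06, 8.45 and 8.61 log2 units in LKB1 KO 1 to 4, against 6.21, 7.23, 7.71 and 6.41 in Ctrl 1 to 4. Every LKB1 KO array was above every Ctrl array, and the Ctrl arrays were the more widely spread (8.33 ± 0.25 in LKB1 KO and 6.89 ± 0.71 in Ctrl, SD, n = 4 each). The difference was 1.44 log2 units (SE 0.30, 95% confidence interval 0.78 to 2.10, 2.72-fold, limma adjusted p = 0.0366). The call ended when any single array other than Ctrl 3 was left out, with differences from 1.21 to 1.56 and adjusted p from 0.0590 to 0.112 in those 7 fits. Without Ctrl 3 the difference was 1.72 (adjusted p = 0.0105). The call also ended without both LKB1 KO 2 and Ctrl 4 (adjusted p = 0.0926), with each array centred on its median (0.0582) and without moderation of variances (0.209).

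The other checkpoint genes were higher on average but overlapped between the groups. Bub1, a kinase that docks at the kinetochore, had a difference of 1.12 (SE 0.37, adjusted p = 0.187), Bub1b, the gene of the checkpoint protein BubR1, one of 1.04 (SE 0.33, adjusted p = 0.177) and Ttk, the Mps1 kinase that starts checkpoint signalling, one of 1.03 (SE 0.35, adjusted p = 0.198). Bub3, the partner of both Bub proteins, stood at 0.42 (SE 0.24), the smallest difference of the 5. In Bub1 and Ttk the low value of LKB1 KO 2 set the lower end of that group: Bub1 was 3.99 there and 4.98 to 5.67 in the other LKB1 KO arrays, against 3.37 to 4.65 in Ctrl. Without LKB1 KO 2, Bub1 passed the test (1.48, adjusted p = 0.0412), but not without any other single array (adjusted p up to 0.374).

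Among the 4 genes of the centromere and inner kinetochore, 0 passed, and their differences ran widely. Cenpa (Entrez Gene 12615), the histone variant that marks the centromere, was 7.63, 6.99, 8.18 and 7.92 log2 units in LKB1 KO 1 to 4, against 6.32, 7.11, 6.83 and 5.87 in Ctrl 1 to 4. The groups met in 1 place, where Ctrl 2 exceeded LKB1 KO 2. The difference was 1.15 (SE 0.30, 95% confidence interval 0.48 to 1.81, adjusted p = 0.0927). It passed without LKB1 KO 2 (1.38, adjusted p = 0.0484), but not without any other single array (adjusted p up to 0.221). Cenpn, whose protein reads Cenpa-containing nucleosomes, stood at 0.89 (SE 0.39, adjusted p = 0.361), and Cenph at 0.56 (SE 0.34, adjusted p = 0.548). Cenpk, which encodes a partner of Cenph in the inner kinetochore, had nearly equal means (4.11 ± 0.53 in LKB1 KO and 3.96 ± 0.74 in Ctrl, SD, n = 4 each), and its highest array was Ctrl 3, at 4.89. Cenpk lay below the gauge in LKB1 KO 2, Ctrl 1 and Ctrl 4, and Cenpn in Ctrl 1 and Ctrl 4, so the sizes of their differences are uncertain.

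The NDC80 complex, the 4-subunit rod that grips microtubule ends, had a median difference of 1.12 log2 units and 0 members past the test. Spc24 (Entrez Gene 67629) came closest, with 7.81, 7.54, 8.06 and 7.68 in LKB1 KO 1 to 4, against 5.74, 6.95, 7.20 and 6.20 in Ctrl 1 to 4. All of its LKB1 KO arrays exceeded all Ctrl arrays (difference 1.25, SE 0.29, adjusted p = 0.0548). Nuf2 had a larger difference with a larger error, 1.45 (SE 0.45, adjusted p = 0.164). Spc25 stood at 0.99 (SE 0.42) and Ndc80 itself at 0.67 (SE 0.32), the smallest of the 4. At the outer face of the kinetochore, the corona genes Cenpf, which encodes a large coiled-coil protein, and Cenpe, a kinesin that carries chromosomes towards the spindle equator, differed by 1.20 (SE 0.39, adjusted p = 0.186) and 0.85 (SE 0.38, adjusted p = 0.367). Cenpf (Entrez Gene 108000) was 6.40, 5.65, 7.07 and 6.60 in LKB1 KO 1 to 4, against 4.94, 5.83, 5.94 and 4.19 in Ctrl 1 to 4, and the groups overlapped through LKB1 KO 2, which lay below Ctrl 2 and Ctrl 3.

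**Figure D2:**
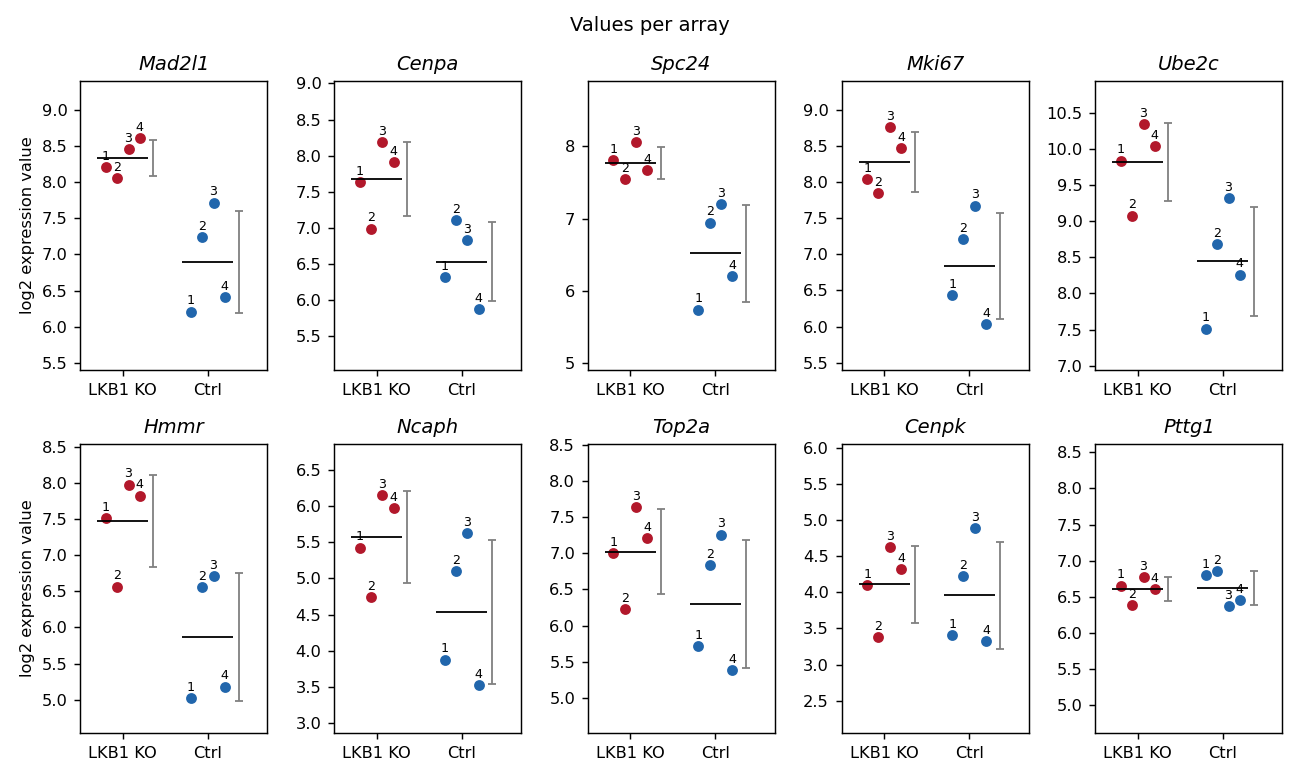
Log2 expression values of 10 members in each array (points, numbered by replicate), with group means (black lines) and SD (grey bars); every panel spans 4 log2 units. Mad2l1, Spc24 and Mki67 separate the groups, Cenpa, Ube2c and Hmmr overlap through LKB1 KO 2 and Ctrl 2 or Ctrl 3, Ncaph and Top2a overlap through further LKB1 KO arrays as well, and Cenpk and Pttg1 have nearly equal means.

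All 7 mitotic kinesin genes had a higher mean in LKB1 KO and 0 passed. The smallest p was that of Kif18b (Entrez Gene 70218), a motor that shortens astral microtubules, at 5.94, 5.69, 6.51 and 6.20 log2 units in LKB1 KO 1 to 4, against 4.60, 5.58, 5.64 and 4.56 in Ctrl 1 to 4. The groups did not overlap, with 0.99 between their means (SE 0.28, adjusted p = 0.119). The largest was that of Kif2c, the microtubule depolymerase MCAK, at 1.44 (SE 0.47, adjusted p = 0.189), and it also had the widest spread of all members, with a pooled SD within groups of 0.868. Kif11, the motor that pushes spindle poles apart, stood at 1.06 (SE 0.44), the chromosome-bound motor Kif4 at 0.96 (SE 0.33) and Kif18a, which damps chromosome movements at the spindle equator, at 0.93 (SE 0.34), with adjusted p between 0.210 and 0.319. Kif22, another chromosome-bound motor, stood at 0.68 (SE 0.29), and Kif15, which can stand in for Kif11 in keeping spindles bipolar, at 0.37 (SE 0.24). Kif15 lay below the gauge in LKB1 KO 2, Ctrl 1 and Ctrl 4. RefSeq lists the pseudogenes Kif4-ps and Kif22-ps, so the probes of Kif4 and Kif22 may read more than their own transcripts. Only member symbols followed by -ps were searched, so pseudogenes of the members under other names were not looked for.

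The 6 condensin and topoisomerase genes had differences between 0.72 and 1.04, and 0 passed. Smc4 (Entrez Gene 70099), a core ATPase of condensin, was 8.50, 7.94, 9.07 and 8.75 log2 units in LKB1 KO 1 to 4, against 7.22, 8.11, 8.23 and 6.73 in Ctrl 1 to 4. LKB1 KO 2 lay below Ctrl 2 and Ctrl 3, and the difference of 0.99 (SE 0.34) did not pass (adjusted p = 0.210). Its partner Smc2 stood at 0.84 (SE 0.40), and the 3 subunits that belong to condensin I alone stood at 0.97 for Ncapd2, 0.99 for Ncapg and 1.04 for Ncaph (SE 0.34, 0.39 and 0.46). Top2a, which untangles sister DNA molecules, had the smallest difference of the 6, at 0.72 (SE 0.41, adjusted p = 0.510). In Top2a, LKB1 KO 1, 2 and 4, at 7.01, 6.23 and 7.21, lay below Ctrl 3 at 7.26, and LKB1 KO 2 also below Ctrl 2 at 6.83. The 3 genes of condensin II, which shares Smc2 and Smc4 but has its own other subunits, had a median difference of 0.17 with 0 past the test (Ncapg2 0.44, adjusted p = 0.682, and Ncaph2 0.17, adjusted p = 0.745). The difference between the condensin I and condensin II subunits was not tested.

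Spindle assembly factors and the chromosomal passenger complex had the highest medians among the roles, 1.26 log2 units each, with 0 of 3 past the test in both. Nusap1 (Entrez Gene 108907), a microtubule-bundling protein gene, was 6.11, 5.55, 6.54 and 6.37 in LKB1 KO 1 to 4, against 4.63, 4.93, 5.71 and 4.26 in Ctrl 1 to 4. Only Ctrl 3 reached above LKB1 KO 2 (difference 1.26, SE 0.30, adjusted p = 0.0643). Nusap1 passed without Ctrl 3 (1.54, adjusted p = 0.0186) and without LKB1 KO 2 (1.46, adjusted p = 0.0489). Without any other single array it did not pass (adjusted p up to 0.170). Tpx2, the activator of the Aurora A kinase on the spindle, stood at 1.23 (SE 0.31, adjusted p = 0.0803) with no overlap. Hmmr, which encodes a hyaluronan receptor that also acts at spindle poles, had the largest mean difference of all members, 1.60 (SE 0.42, 3.03-fold, adjusted p = 0.0939), but its Ctrl arrays spanned 5.02 to 6.71 and LKB1 KO 2, at 6.56, fell within them.

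In the chromosomal passenger complex, which carries the Aurora B kinase and corrects faulty attachments, Birc5 (Entrez Gene 11799), the survivin gene, was 7.78, 7.45, 8.30 and 8.02 log2 units in LKB1 KO 1 to 4, against 6.48, 6.87, 7.28 and 5.87 in Ctrl 1 to 4. The groups did not overlap, and the difference of 1.26 (SE 0.28, 95% confidence interval 0.64 to 1.89) missed the threshold narrowly (adjusted p = 0.0512). Birc5 passed without Ctrl 3 (1.48, adjusted p = 0.0259), but not without any other single array (adjusted p up to 0.138). Cdca8, the borealin gene, stood at 1.45 (SE 0.40, adjusted p = 0.108). Incenp, the scaffold of the complex, had a smaller difference of 0.53 with one of the smaller errors (SE 0.19, adjusted p = 0.241).

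The genes of chromatid separation did not share one pattern. Ube2c (Entrez Gene 68612), the ubiquitin-conjugating enzyme of the APC/C, was 9.84, 9.08, 10.34 and 10.04 log2 units in LKB1 KO 1 to 4, against 7.51, 8.68, 9.32 and 8.26 in Ctrl 1 to 4. Ctrl 3 lay above LKB1 KO 2, and the difference was 1.38 (SE 0.37, adjusted p = 0.0942). Without Ctrl 3 it passed (1.67, adjusted p = 0.0373), but not without any other single array (adjusted p up to 0.220). Espl1, the separase gene, stood at 0.37 (SE 0.15, adjusted p = 0.293), with 4.23 to 4.82 in LKB1 KO, against 4.03 to 4.30 in Ctrl. Pttg1, the gene of securin, the inhibitor of separase, did not follow the other members: it was 6.66, 6.39, 6.77 and 6.61 in LKB1 KO 1 to 4, against 6.80, 6.85, 6.38 and 6.46 in Ctrl 1 to 4. Its difference of -0.01 (SE 0.15) had a 95% confidence interval of -0.35 to 0.32, which leaves out the median of the members.

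Of the remaining members, Mki67 (Entrez Gene 17345), the gene of the proliferation marker Ki-67 that coats mitotic chromosomes, was 8.04, 7.84, 8.75 and 8.47 log2 units in LKB1 KO 1 to 4, against 6.44, 7.21, 7.67 and 6.04 in Ctrl 1 to 4. The groups did not overlap, and the difference was 1.43 (SE 0.33, 95% confidence interval 0.70 to 2.17, adjusted p = 0.0599). Mki67 passed without Ctrl 3 (1.71, adjusted p = 0.0232), but not without any other single array (adjusted p up to 0.158). Nek2, a kinase that separates centrosomes, stood at 1.10 (SE 0.35, adjusted p = 0.174). Cdc25b, a phosphatase that activates mitotic cyclin-dependent kinase, stood at 0.04 (SE 0.20, 95% confidence interval -0.41 to 0.49), and was below the gauge in LKB1 KO 2, Ctrl 1, Ctrl 2 and Ctrl 4, so a change in it could not be measured well. In all, 7 members fell below the gauge in at least 1 array (Bub1, Cenpk, Cenpn, Kif15, Kif18a, Ncaph and Cdc25b) and 0 in all 8.

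The members moved together from array to array within each group. As the median over members of the log2 deviation from each gene's mean, LKB1 KO 1 to 4 stood at 0.48, -0.21, 0.93 and 0.77, against -0.98, -0.01, 0.16 and -1.15 in Ctrl 1 to 4. LKB1 KO 2 was thus below Ctrl 2 and Ctrl 3, and Ctrl 1 and Ctrl 4 were the lowest of all. This order recurred in single genes. LKB1 KO 2 was the lowest LKB1 KO array in 39 of 40 members, the exception being Espl1, and Ctrl 1 and Ctrl 4 were both below Ctrl 2 and Ctrl 3 in 37. The highest value of a member was in LKB1 KO 3 for 24 members and in LKB1 KO 4 for 13. In 6 of 40 members (Mad2l1, Spc24, Kif18b, Tpx2, Birc5 and Mki67) every LKB1 KO array was above every Ctrl array, against 3.34% of all named genes. LKB1 KO 2 is also the array with the narrowest spread of values, and its part in the low values there was not tested; with quantile normalization, which gives every array the same spread, the median difference of the members was 1.05.

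**Figure D3:**
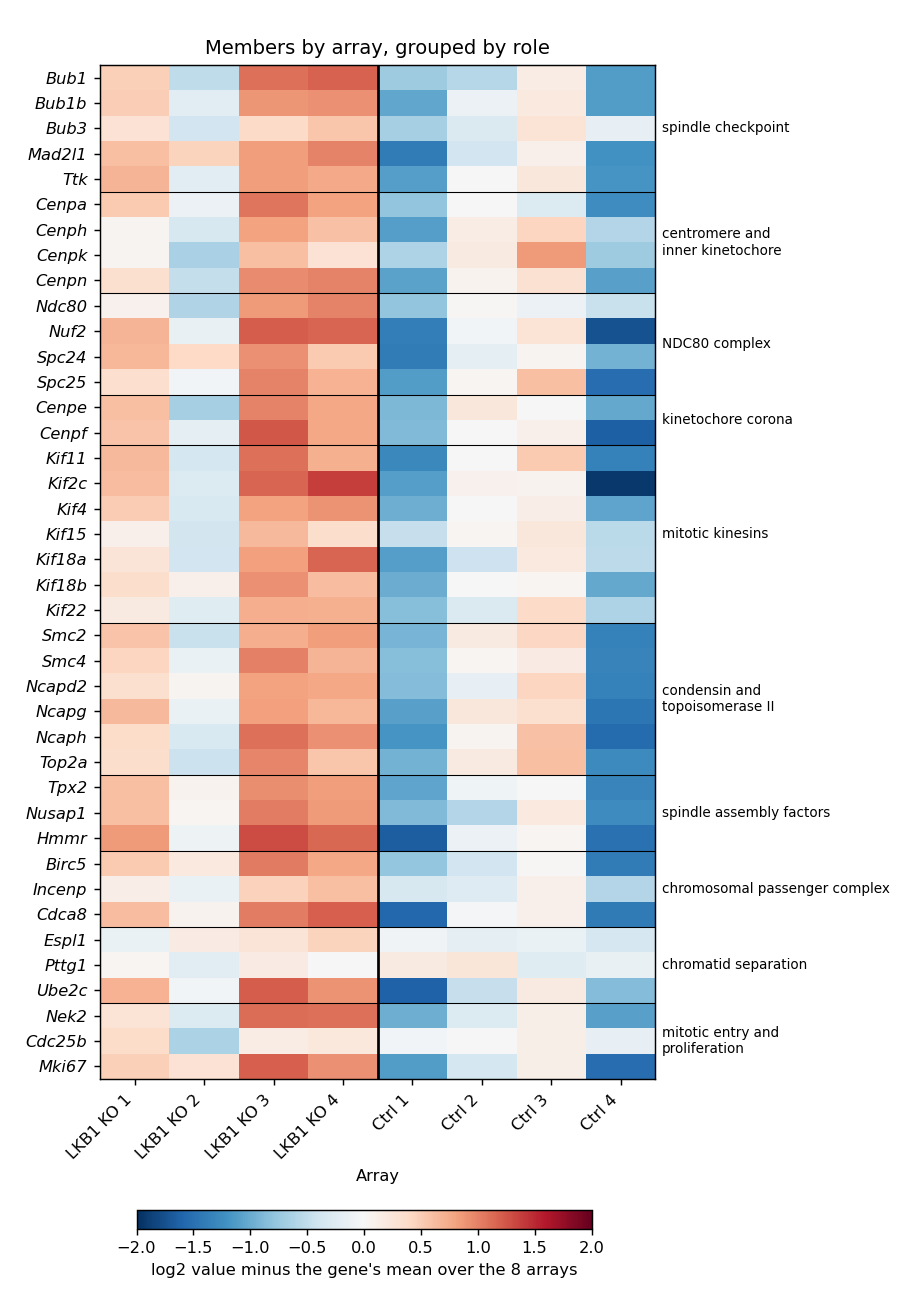
Log2 value of each member (rows, grouped by role) in each array (columns, LKB1 KO left, Ctrl right) minus that gene's mean over the 8 arrays; red is above and blue below the mean. LKB1 KO 3 and LKB1 KO 4 are red and Ctrl 1 and Ctrl 4 blue in nearly every row, while LKB1 KO 2, Ctrl 2 and Ctrl 3 lie near the mean, and Pttg1 and Cdc25b show little of this pattern.

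The members varied more within groups than most genes. Their pooled SD between arrays of 1 group had a median of 0.610 log2 units, against 0.232 over all named genes and 0.245 over the 11610 genes within the members' range of mean level. It was larger in Ctrl than in LKB1 KO, with median SDs of 0.505 in LKB1 KO and 0.686 in Ctrl. Members with little spread also had small differences: Pttg1, Espl1, Incenp and Cdc25b, with pooled SDs of 0.204, 0.191, 0.304 and 0.327, differed by -0.01, 0.37, 0.53 and 0.04.

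**Figure D4:**
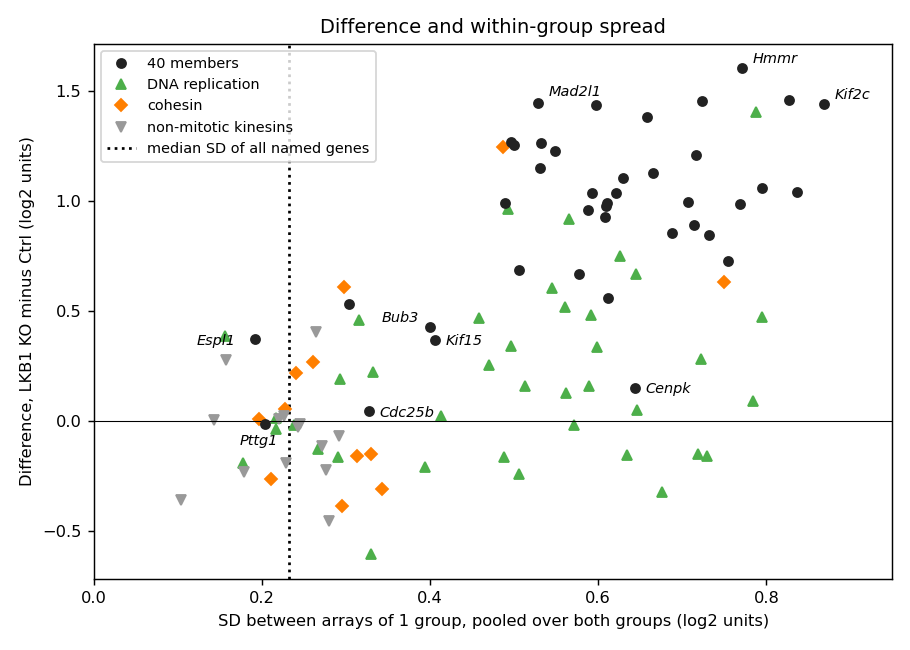
Difference, LKB1 KO minus Ctrl, against the SD between arrays of 1 group, both in log2 units, for the 40 members, DNA replication genes, cohesin genes and non-mitotic kinesins; the dotted line is the median SD of all named genes, 0.232. Most members lie at the upper right, with differences near 1 and SDs of 0.5 to 0.9. Replication genes with SDs in that range had differences from -0.32 for Mcm4 to 1.40 for Rrm2, so the lists overlap.

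Other genes of the same structures behaved in part alike. For scale, 0.487% of all named genes rose and 1.49% fell. Of 13 measured genes of the inner kinetochore that are not among the 40, 3 rose and 0 fell, with a median difference of 0.70. They were Cenpp (1.75, SE 0.34, adjusted p = 0.0282) and Cenpm (1.10, SE 0.21, adjusted p = 0.0250), both of the constitutive centromere network, and Cenpw (1.09, SE 0.24, adjusted p = 0.0462), whose protein has a histone fold. Cenpp stood at 6.02, 6.46, 6.77 and 6.76 in LKB1 KO 1 to 4, against 3.81, 5.14, 5.61 and 4.44 in Ctrl 1 to 4, and unlike the members it was not lowest in LKB1 KO 2. Of 17 genes of the outer kinetochore, checkpoint and chromatid protection, 1 rose: Pmf1, a subunit of the MIS12 complex that anchors NDC80 (1.43, SE 0.28, adjusted p = 0.0293). The other genes of that complex stood at 0.00 for Mis12 (SE 0.24), 0.19 for Nsl1 (SE 0.13) and 0.74 for Dsn1 (SE 0.51), and their differences from Pmf1 were not tested. Nsl1 lay below the gauge in every array, so a change in it could not be measured well. Dsn1 lay below it in Ctrl 1 and Ctrl 4, so the size of its difference is uncertain. The calls of Cenpm, Cenpp, Cenpw and Pmf1 also ended when single arrays were left out: Cenpm without LKB1 KO 1, 3 or 4 or Ctrl 1 or 2 (adjusted p up to 0.0831), Cenpp without any but LKB1 KO 1 or Ctrl 3 (up to 0.0901), Cenpw without any but Ctrl 3 (up to 0.133) and Pmf1 without any but LKB1 KO 2 or Ctrl 3 (up to 0.0923). Median centring ended those of Cenpm (0.0513), Cenpw (0.0826) and Pmf1 (0.0508).

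Of 14 other spindle genes 0 passed, with a median of 1.03; Kifc1, a minus-end directed kinesin gene, stood at 1.21 (adjusted p = 0.0543) and Tacc3, a microtubule stabiliser gene, at 1.14 (adjusted p = 0.0640). Cohesin, APC/C and cargo-carrying kinesin genes had medians nearer 0. Cohesin and its regulators had a median of 0.03 over 12 genes with 0 past the test. Within that list Cdca5, the gene of sororin, which protects cohesion until mitosis, stood at 1.24 (adjusted p = 0.0512), the cohesin subunit gene Rad21 at 0.61 (adjusted p = 0.168), and the core subunits Smc1a and Smc3 at -0.16 and -0.39. The 16 APC/C genes had a median of 0.15 and 0 past the test, and those with the smallest p were Ube2s (0.98, adjusted p = 0.0991), which encodes the enzyme that extends the ubiquitin chains Ube2c starts, and the activator gene Cdc20 (1.25, adjusted p = 0.142). The 14 non-mitotic kinesins, which carry cargo along microtubules, had a median of -0.05, with 0 past the test (Kif1c -0.36, adjusted p = 0.189, and Kif13b -0.46, adjusted p = 0.298). Of these 14 genes, 5 lay below the gauge in all arrays, so a change in those 5 could not be measured well.

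The lists most like the members were set beside them. The share of all named genes that rose was 0.487%. The 12 measured mitotic cyclins and kinases had a median difference of 1.06, and 2 of them rose, Ccnb2 (1.54, adjusted p = 0.0250) and Plk1 (1.64, adjusted p = 0.0471), though single arrays left out ended both calls (adjusted p up to 0.0845 and 0.136). Their array medians, 0.41, -0.12, 1.12 and 0.83 in LKB1 KO 1 to 4 against -1.03, -0.16, 0.06 and -1.16 in Ctrl 1 to 4, were in the same order as those of the members but for LKB1 KO 2 and Ctrl 2. The 39 DNA replication genes had a median of 0.16 and 0 past the test, with Tyms at 0.96 (adjusted p = 0.136) and Rrm2 at 1.40 (adjusted p = 0.159). Their array medians were -0.02, -0.23, 0.25 and 0.28 in LKB1 KO 1 to 4, against -0.34, 0.15, 0.57 and -0.84 in Ctrl 1 to 4, so the highest array was Ctrl 3.

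The members' median was also set against that of the replication genes in each array. The members' median less the replication median was 0.50, 0.02, 0.67 and 0.49 in LKB1 KO 1 to 4, against -0.63, -0.16, -0.41 and -0.31 in Ctrl 1 to 4. All LKB1 KO arrays lay above all Ctrl arrays by this measure, LKB1 KO 2 included, which the members alone did not show. With quantile normalization the values ran from 0.17 to 0.59 in LKB1 KO and from -0.64 to -0.19 in Ctrl. No test was made of this difference. Both lists were chosen with results of these arrays known, so the separation is not independent support for a difference between the groups. LKB1 KO 2 was also the lowest array of the cohesin genes (median -0.37) and the non-mitotic kinesins (-0.18). Whether the separation is particular to replication genes was not tested.

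**Figure D5:**
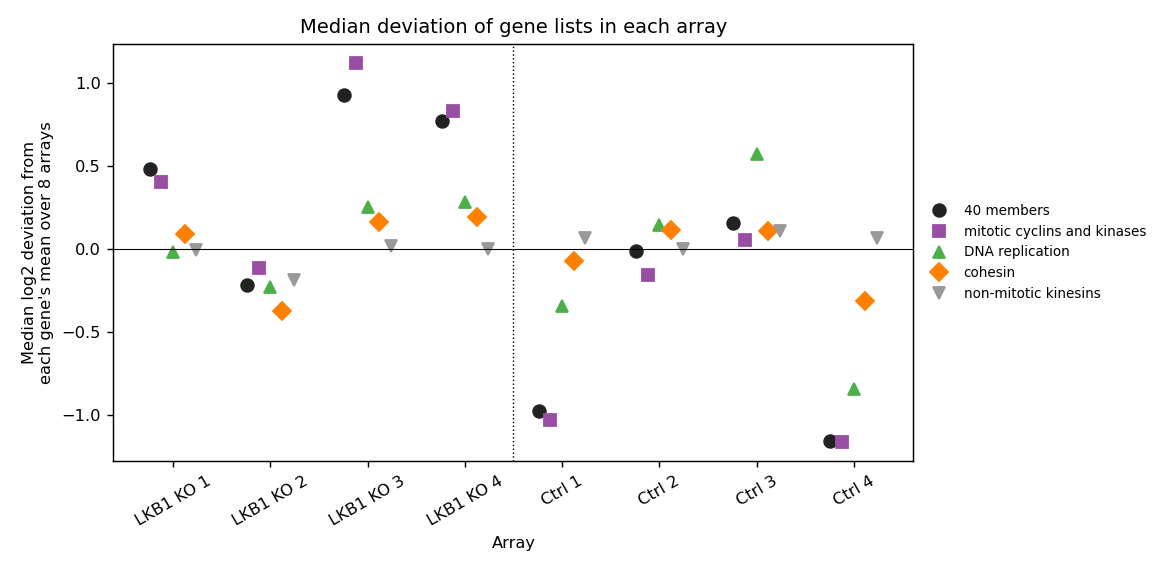
Median log2 deviation from each gene's mean over the 8 arrays, per array, for the 40 members, mitotic cyclins and kinases, DNA replication genes, cohesin genes and non-mitotic kinesins. The members and the mitotic cyclins and kinases lie above the replication genes in all LKB1 KO arrays, the members by only 0.02 in LKB1 KO 2, and below them in all Ctrl arrays. Non-mitotic kinesins, of which 5 of 14 lay below the gauge in all arrays, stay between -0.18 and 0.11.

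Markers of other liver cells moved in the same comparison, in which 1.49% of all named genes fell. Of 8 markers of sinusoidal endothelium 3 fell (Clec4g, Gpr182 and Kdr), with array medians (of the same log2 deviations) from -0.32 to -0.16 in LKB1 KO, against 0.04 to 0.43 in Ctrl. Of 8 macrophage markers 1 fell (Csf1r), with array medians from -0.38 to 0.01 in LKB1 KO, against -0.06 to 0.80 in Ctrl. Ctrl 1 and Ctrl 4, lowest in the members, were the highest Ctrl arrays in the endothelial (0.32 and 0.43) and macrophage (0.80 and 0.24) markers. The relation between these was not tested. Of 5 erythroid markers 1 fell (Alas2), but 2 had a higher mean and 3 a lower one, with a median difference of -0.04. Of the 7 lymphocyte, 8 neutrophil and monocyte, 8 stellate cell and 5 cholangiocyte markers, 0 passed. Below the gauge in all arrays were 3 of the lymphocyte, 3 of the neutrophil and monocyte and 2 of the cholangiocyte markers. A change in those could not be measured well. Neutrophil and monocyte markers had a lower mean in 5 and a higher one in 3. They ran from -1.07 for S100a8 and S100a9 to 0.42 for Ngp, which lay below the gauge in all arrays. Stellate cell markers had a lower mean in 6 and a higher one in 2, from -1.02 for Rgs5 to 0.57 for Acta2. Among the 5 that fell, only the call of Clec4g held with each single array left out. They differed by -0.68 to -1.03 log2 units, and their part in the differences of the mitotic genes was not tested.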

How the data were processed

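Liver RNA on 8 arrays was compared. Per the labels' protocols it was isolated with TRIzol, amplified with the Ovation PicoSL kit and labelled with biotin. The authors deposited 1 log2 expression value per gene and array, and the submitters' processing notes name RMA and Partek, without versions or order. RMA draws dim values together, so folds of weak genes are uncertain. No source used here gives the array design or genome build, and coordinates are therefore left out. Of 25206 rows, 23185 had 1 gene symbol, 0 had several and 2021 had none.

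A linear model with the group as its only term was fitted to all named rows with limma 3.58.1 in R 4.3.3 (lmFit, eBayes), two-sided, with Benjamini-Hochberg adjustment over the 23185 genes and a threshold of 0.05. Differences are LKB1 KO minus Ctrl in log2 units. The code was tested on simulated data whose genes varied independently of each other. The members shift together, so that does not show how reliable their adjusted p-values are. The members and lists were chosen with earlier results of these data known, so lists are described by counts and medians and not tested. All members are accounted for, with values per array for those past the threshold and for the member of each role with the smallest p. Of other pathway lists, genes past the threshold or otherwise the 2 with the smallest p are named, as is Stk11. Chosen after their values were seen were Mis12, Nsl1, Dsn1, Smc1a, Smc3, S100a8, S100a9, Ngp, Rgs5 and Acta2.

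The replicates are not said to be separate animals, so p-values reflect only how far these samples differ among themselves, possibly for technical reasons. The number of arrays limits the precision. Alternatives were a replicate block, leaving out each array in turn, LKB1 KO 2 and Ctrl 4 left out together, quantile normalization, median centring, removal of genes in the lowest 33% by mean level, a prior variance with trend and robust fit, no moderation, array weights, all rows, and thresholds of 0.01 and 0.1.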

Additional observations from a re-analysis of the deposited data

Results flagged for a closer look

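In groups of 4 arrays, a value was examined more closely when its gap to the nearest other array was a larger share of the group's range than Dixon's 95% critical value. Of the 80 member groups, 1 met this, where chance gives about 4: Ttk in LKB1 KO 2, at 5.885 log2 units, with the next LKB1 KO array at 6.78. Of the list medians, the non-mitotic kinesins in LKB1 KO 2 met it, at -0.1845 with the next at -0.0054, as did the macrophage markers in LKB1 KO 4, at 0.0095 with the next at -0.312.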

How the results depend on the processing

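The count of members that rose, 1 as reported, was 0 with the replicate block, with median centring, without moderation of variances and at an adjusted p under 0.01. It was 2 without both LKB1 KO 2 and Ctrl 4 (Cenpa and Birc5), 3 with a trended and robust prior, 5 without genes in the lowest 33% by mean level, 6 with quantile normalization, 9 at an adjusted p under 0.1 and 10 with array weights, which gave LKB1 KO 2 the lowest weight, 0.398. With single arrays left out it ran from 0 to 6: 6 without Ctrl 3, 3 without LKB1 KO 2 and 0 without any other. No member fell under any of these. The median difference of the members stayed between 0.77 (without Ctrl 4) and 1.27 (without Ctrl 3). The differences of 3 members near 0 changed sign without a call: Pttg1 was 0.0487 with quantile normalization, 0.0123 with array weights, 0.0047 without both LKB1 KO 2 and Ctrl 4 and from -0.0956 to 0.0632 with single arrays left out; Cdc25b was -0.0098 with quantile normalization and from -0.0718 to 0.260 with single arrays left out; and Cenpk ran from -0.0653 to 0.458 with single arrays left out. The cause of these changes was not tested.

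Over all genes, 113 rose and 345 fell as reported. The rises numbered 198 with quantile normalization, 254 with array weights, 13 without moderation, 24 at 0.01, 258 at 0.1 and from 42 to 144 with single arrays left out. They numbered 162 with a trended and robust prior and 141 without both LKB1 KO 2 and Ctrl 4. With the replicate block there were 82 rises, and with median centring 77. Without the genes of lowest mean level, 165 of the 15456 genes tested rose. In every setting that raised the count of members, more than 113 genes rose, and in every setting that lowered it, fewer. The falls numbered 186 with the replicate block, 84 without moderation, 115 at 0.01, 581 at 0.1 and from 164 to 382 with single arrays left out. Same-numbered arrays of the groups deviated little together (correlations over genes from -0.109 to 0.183, and 1 of 4 LKB1 KO arrays correlated best with its own number). The labels do not pair them, and correlations of so few arrays cannot exclude a pairing. Among the named mitotic genes, the replicate block ended the calls of Mad2l1 (adjusted p = 0.0561), Cenpm (0.0593) and Plk1 (0.0650) and gave one to Kifc1 (0.0431).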
